A study of Mus musculus with 2 samples.

Results

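The 8 myosin heavy chain genes described here are Myh1, Myh2, Myh4, Myh3, Myh8, Myh7, Myh9 and Myh10. They were chosen by name out of the 32285 genes that both count matrices list, with earlier results of these data known. Their transcripts were counted as unique molecular identifiers (UMIs) in every cell of 2 single-cell RNA-seq libraries made from mouse plantaris, a hind limb muscle. All 8 genes passed into the analysis, and each one had UMIs in at least 1 library. The question for each gene was in which cells its UMIs lay, at what level, and together with which other isoforms.

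Both libraries came from Pax7rtTA; TRE-H2B-GFP mice of 26 weeks, in which a tetracycline-responsive activator made in Pax7-expressing cells switches on a green fluorescent histone while doxycycline is given. All animals had received doxycycline at 2.0 mg/mL in sweetened drinking water for 2 weeks, so the controls carried the same alleles and the same drug. The sham library came from muscle that had a skin incision and a probed tendon. The MOV library came from muscle under mechanical overload (MOV), made by cutting away part of the synergist muscles and their tendon. Cells were taken 5 days after surgery. The labels call the cells muscle stem cells (MuSCs) and describe a sort on VCAM, CD31, CD45 and Sca1, whereas the series text describes a sort on the GFP signal. The labels speak of 1 mouse, whereas the study's methods describe several animals per group, so the number of animals in a library is not settled. With 1 library for sham and 1 for MOV, differences between them could not be checked against replicates and carry no p-value, and every interval is a 95% interval that covers counting error only.

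Myosin heavy chain is the motor of the thick filament, and it works with a pair of essential and regulatory light chains on each head. Muscle fibres choose among sarcomeric isoforms with different speeds. Myh4 (MyHC-2B) marks the fastest glycolytic fibres. Myh1 (MyHC-2X) and Myh2 (MyHC-2A) mark fast fibres with more oxidative capacity, and Myh7 (MyHC-slow) marks slow fibres. Myh3 (embryonic) and Myh8 (neonatal) are used in development and again for a time in regenerating fibres, and Myh9 and Myh10 (non-muscle myosin IIA and IIB) drive contraction of the actin cortex, migration and cytokinesis in most cell types.

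The genes of the sarcomeric isoforms other than Myh7 lie side by side. On mouse chromosome 11 (GRCm38, plus strand, GENCODE vM21) the order was Myh3 (ENSMUSG00000020908, chr11:67078300-67102291), Myh2 (ENSMUSG00000033196, chr11:67171027-67197517), Myh1 (ENSMUSG00000056328, chr11:67200052-67224575), Myh4 (ENSMUSG00000057003, chr11:67238029-67260446) and Myh8 (ENSMUSG00000055775, chr11:67277124-67308634). The starts of Myh3 and Myh8 were 198824 bp apart, and 2534 bp separated the end of Myh2 from the start of Myh1. An annotated antisense gene, Myhas (ENSMUSG00000085348, chr11:67211256-67237573, minus strand), starts 456 bp before Myh4 and overlaps the 3′ part of Myh1. Myh10 (ENSMUSG00000020900, chr11:68691559-68816632) lies further along the same chromosome, Myh7 (ENSMUSG00000053093) lies at chr14:54970684-54994626 and Myh9 (ENSMUSG00000022443) at chr15:77760587-77842175, both on the minus strand.

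The promoter windows of the 5 clustered genes are shown because these genes share a locus and yet were found in different cells. Each is the RefSeq sequence of the 250 bases before the RefSeq start (GRCm38.p6, plus strand). For Myh1 only the first 200 of these are printed, because GENCODE places the first exon earlier, and distances to a start count from the RefSeq start, beyond the end of the printed Myh1 window. The windows are chr11:67199852-67200051 for Myh1, chr11:67170777-67171026 for Myh2, chr11:67237562-67237811 for Myh4, chr11:67276874-67277123 for Myh8 and chr11:67078050-67078299 for Myh3. Capitals mark the MEF2 match (MEF2 proteins are activators of muscle genes) TTATTTATAG and the run that the genes share.
Myh1: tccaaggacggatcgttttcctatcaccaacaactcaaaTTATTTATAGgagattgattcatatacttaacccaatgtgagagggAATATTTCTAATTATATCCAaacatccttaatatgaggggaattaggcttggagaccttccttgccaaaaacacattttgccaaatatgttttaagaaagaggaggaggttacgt
Myh2: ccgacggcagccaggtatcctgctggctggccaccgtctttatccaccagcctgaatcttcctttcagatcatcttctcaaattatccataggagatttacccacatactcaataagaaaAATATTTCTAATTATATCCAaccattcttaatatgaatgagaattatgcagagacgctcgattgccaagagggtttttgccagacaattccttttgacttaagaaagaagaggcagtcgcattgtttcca
Myh4: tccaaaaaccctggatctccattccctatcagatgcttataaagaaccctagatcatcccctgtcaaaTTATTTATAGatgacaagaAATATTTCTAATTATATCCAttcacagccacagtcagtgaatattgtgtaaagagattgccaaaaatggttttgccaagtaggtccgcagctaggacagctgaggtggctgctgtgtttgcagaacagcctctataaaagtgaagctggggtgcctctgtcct
Myh8: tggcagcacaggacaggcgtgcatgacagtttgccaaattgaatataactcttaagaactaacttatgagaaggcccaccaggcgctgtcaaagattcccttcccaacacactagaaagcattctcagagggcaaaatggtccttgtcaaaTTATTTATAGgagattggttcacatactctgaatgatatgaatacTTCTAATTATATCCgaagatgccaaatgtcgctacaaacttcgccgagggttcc
Myh3: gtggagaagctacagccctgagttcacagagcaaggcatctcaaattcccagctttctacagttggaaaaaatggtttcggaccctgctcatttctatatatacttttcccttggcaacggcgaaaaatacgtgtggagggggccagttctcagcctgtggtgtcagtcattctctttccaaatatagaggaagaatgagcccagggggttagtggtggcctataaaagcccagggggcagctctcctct
Of 32851 RefSeq windows, 3 held the 20-base run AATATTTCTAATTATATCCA, and these were Myh1, Myh2 and Myh4, where it began 165, 130 and 163 bases before the start. A shorter run of 14 bases inside it, TTCTAATTATATCC, was also in Myh8, 54 bases before the start, and in no window of another gene. The letters TTATTTATAG stood in Myh1, Myh4 and Myh8 (211, 182 and 99 bases before the start) and in 19 windows in all. The full MEF2 motif, searched on both strands, was in 2.92% of all windows. Myh4 alone of the 8 held a CArG box, CCAAAAATGG, a motif in 1.47% of windows. Myh3 held none of the marked runs in its window, and had TATAAA 29 bases before its start (either strand, in 12.4% of windows). The windows of the non-muscle genes Myh9 and Myh10 were GC-rich at 62.4% and 62.8%, against 36% in Myh1 and a median of 52.4% over all windows. These matches describe letters in a window, not factor binding.

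The transcripts themselves are alike, which bears on how reads are shared out among the genes. Over the whole transcript Myh1 and Myh2 were 90.2% identical and Myh1 and Myh4 were 89.6% identical, while Myh9 and Myh10 were 72.0% identical. The assay reads the 3′ end, and of the 50-base windows in the last 500 bases of Myh1, 16.0% also occurred in Myh2 and 7.54% in Myh4. Of those of Myh4, 7.54% also occurred in Myh1 and 7.54% in Myh2. Reads that fall in such windows cannot be assigned to 1 gene, so a level of Myh1, Myh2 or Myh4 may be counted low. The counts of these close copies carry that uncertainty. Because only 1 end of each transcript is read, levels are given as UMIs of a gene per 1000000 UMIs of its group (CPM), with no division by length.

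Cells were put into groups by the share of their UMIs that came from marker genes, none of which was a myosin heavy chain gene. The sham library held 1100 barcodes and 7302661 UMIs, of which 734 cells and 5786197 UMIs were kept (median 5365.5 UMIs). The MOV library held 3854 barcodes and 88498487 UMIs, of which 2985 cells and 83178590 UMIs were kept (median 21774). Against the MuSC label, 499 of the 734 sham cells (68.0%) were fibre droplets, that is barcodes dominated by transcripts of mature fibres such as Acta1, Ckm and Pvalb. Another 122 sham cells were grouped as MuSCs by markers such as Pax7 and Myf5, 88 carried markers of non-myogenic cells (56 of them fibro-adipogenic progenitors, FAPs) and 2 carried myocyte markers. The MOV library held 1588 MuSCs, 181 myocytes (cells with Myog, Mymk and Mymx or later markers such as Myl4 and Tnnt2), 57 fibre droplets (1.91%) and 890 non-myogenic cells, 755 of them FAPs. The remaining cells had markers of several types (20 sham, 180 MOV) or of none (3 and 89). The shares that define the groups were set after the marker distributions were seen, and many cells lay near a cut, 19.3% of sham and 18.1% of MOV cells for the MuSC markers. The sham fibre droplets had the MuSC markers summed at 3523 CPM, against 4608 CPM in sham MuSCs. In the droplets Des, the muscle intermediate filament, made up 98.7% of this sum, with Pax7 at 2.25 CPM and Vcam1 and Chodl at 0.

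Of the barcodes, 44 occurred in both libraries, and 38 of them were kept in sham and 41 in MOV. Among the MOV fibre droplets 21 of 57 had a barcode that was also in the sham library, and each of the 21 was a fibre droplet there as well. The sham partners had a median of 26709 UMIs over the 22 shared fibre droplets, and the 21 MOV ones had a median of 595. Among sham MuSCs 10 of 122 had a shared barcode, and these deep cells (median 51188.5 UMIs) held 34.1% of all sham MuSC UMIs. The fast isoform shares of fibre droplets and the heavy chain ratios of MOV over sham MuSCs are given with and without shared barcodes. The partner lists and the counts over all genes are given with all barcodes only. Whether UMIs of a shared barcode belong to the other library was not tested.

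The adult fast isoforms were the heavy chains of the sham fibre droplets. Myh4, the fastest isoform, had 11251 UMIs over the 499 droplets, a level of 3624 CPM (3557 to 3691), and at least 1 UMI in 337 droplets (67.5%). Myh1 followed with 3970 UMIs at 1279 CPM (1239 to 1319) in 261 droplets (52.3%), and Myh2 with 1163 UMIs at 375 CPM (353 to 397) in 92 droplets (18.4%). The 3 intervals did not overlap, so Myh4 was above Myh1 and Myh1 above Myh2 by more than the counting error. The developmental and slow isoforms were at or near 0 there: Myh3 and Myh7 had no UMI, which over 3104755 UMIs allows a level of up to 0.966 CPM (3 counts), and Myh8 had 1 UMI. The non-muscle isoforms were almost absent too, with 2 UMIs of Myh9 and 9 UMIs of Myh10.

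Nearly all fast isoform UMIs of the sham library lay in fibre droplets, 99.0% of the 4010 Myh1 UMIs, 99.1% of the 1174 Myh2 UMIs and 98.3% of the 11451 Myh4 UMIs. Of the Myh4 UMIs outside the droplets, 119 lay in the 20 cells with markers of several types, 49 in MuSCs, 23 in non-myogenic cells and 9 in the 2 myocytes. Myh4 had a UMI in 25.4% of the 122 sham MuSCs (31 cells, median depth 7912.5 UMIs) and in 18.2% of the 88 sham non-myogenic cells (16 cells, median depth 8845.5 UMIs). When each cell was thinned to 2000 UMIs, the shares were 10.2% of 118 MuSCs (5.37% to 17.1%) and 6.33% of 79 non-myogenic cells (2.09% to 14.2%), and these intervals overlap. The Myh4 level was 32.1 CPM in sham MuSCs and 25.1 CPM in sham non-myogenic cells, and the make-up of the fast UMIs was close to that of the fibre droplets: Myh4 made up 59.8% of the 82 fast UMIs in MuSCs and 76.7% of the 30 in non-myogenic cells, against 68.7% in droplets. The fibre markers as a list were at 1633 CPM in sham MuSCs, 971 CPM in sham non-myogenic cells, 864 CPM in MOV MuSCs and 178 CPM in MOV non-myogenic cells. As log2 ratios of sham MuSCs over sham non-myogenic cells, Myh4 had 0.35 (-0.39 to 1.14), which includes 0, Myh1 had 1.52 (0.11 to 3.27) on 24 and 5 UMIs, and the 3 fast isoforms summed had 0.71 (0.09 to 1.37). Without the shared barcodes Myh4 was at 43.8 CPM in the 112 remaining MuSCs and 31.7 CPM in the 83 remaining non-myogenic cells, a log2 ratio of 0.47 (-0.29 to 1.26), while Myh1 had 2.34 (0.59 to 4.73) on 21 and 3 UMIs. The interval for Myh4 included 0 both ways, and Myh1 was higher in MuSCs on few UMIs. The part of fibre RNA in these values was not tested.

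**Figure D1:**
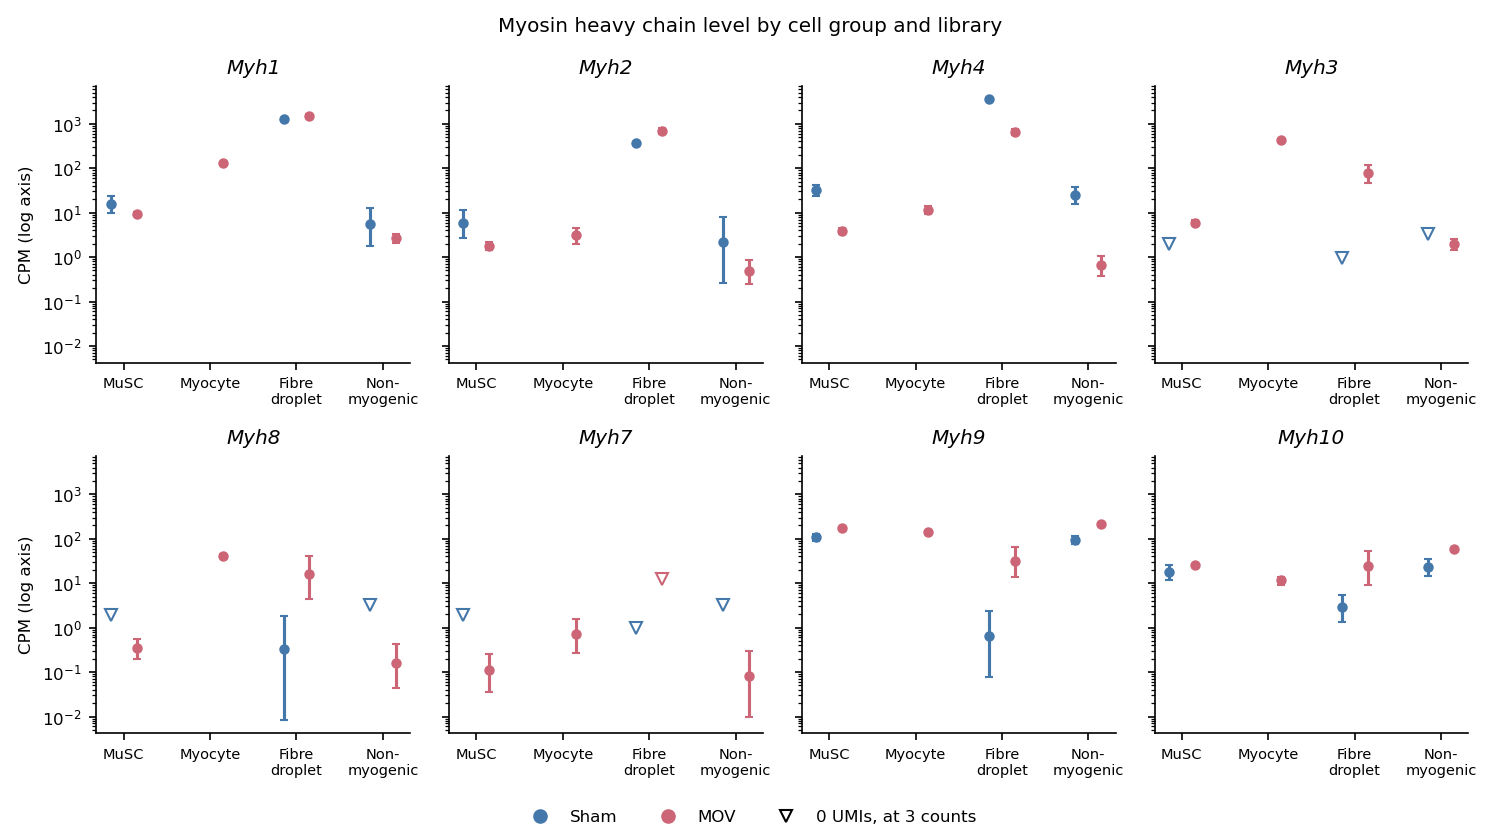
Level of each of the 8 genes (1 panel per gene, CPM on a log axis) in the 4 cell groups of the sham (blue) and MOV (red) libraries, with 95% Poisson intervals; open triangles stand for groups with 0 UMIs and are drawn at 3 counts, and the 2 sham myocytes are left out. Myh4 was highest in sham fibre droplets at 3624 CPM, Myh3 in MOV myocytes at 431 CPM, and Myh9 was between 92.9 and 214 CPM in the groups outside the fibre droplets.

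Among single sham fibre droplets the fast isoforms were mostly segregated. Of 212 droplets with at least 20 fast UMIs, Myh4 led in 147 (69.3%, 62.7% to 75.5%), Myh1 in 47 (22.2%, 16.8% to 28.4%) and Myh2 in 17 (8.02%, 4.74% to 12.5%), and 1 droplet held Myh1 and Myh4 equally. In 153 droplets (72.2%) 1 isoform made up at least 90% of the fast UMIs. This purity differed with the leading isoform, since it was reached by 120 of the 147 droplets led by Myh4 (81.6%), 14 of the 17 led by Myh2 (82.4%) and 19 of the 47 led by Myh1 (40.4%). The highest count in 1 droplet was 488 UMIs for Myh1, 477 for Myh4 and 67 for Myh2.

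In droplets led by Myh4 or Myh2, the isoform that reached 10% beside the leading one was always Myh1. A second isoform at 10% or more was present in 59 of the 212 droplets (27.8%, 21.9% to 34.4%), and 0 of them held all 3 isoforms at that share or more. In the droplets led by Myh4, Myh1 reached 10% in 27 of 147 (18.4%) and Myh2 in 0, with any Myh2 UMI in only 2. Of the droplets led by Myh2, 3 of 17 held Myh1 at 10% or more, none held Myh4 at that share, and 1 held any Myh4 UMI. The droplets led by Myh1 were mixed in both directions, 18 of 47 with Myh4 (38.3%) and 10 of 47 with Myh2 (21.3%) at 10% or more. Myh4 and Myh2 were thus the pair that did not both reach 10% in any sham droplet counted here.

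**Figure D2:**
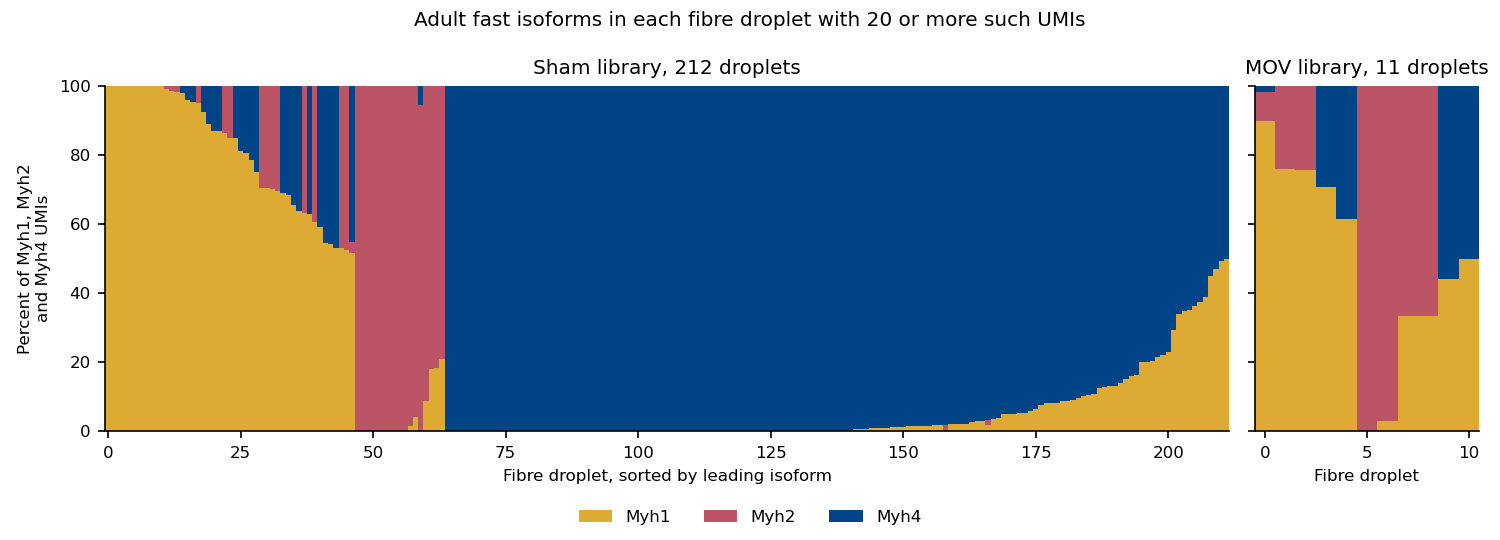
Share of each fast isoform (percent of the Myh1, Myh2 and Myh4 UMIs) in each fibre droplet with at least 20 fast UMIs, 1 bar per droplet sorted by leading isoform, in the sham library (212 droplets) and the MOV library (11 droplets). In the sham library 147 droplets were led by Myh4, 47 by Myh1 and 17 by Myh2, 1 was tied, and the droplets led by Myh1 were the least pure.

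Co-detection over all 499 sham fibre droplets gave the same order of pairs. Myh1 and Myh4 were found together in 152 droplets (30.5%, 26.4% to 34.7%), Myh1 and Myh2 in 49 (9.82%), and Myh2 and Myh4 in 12. Among the 356 droplets deep enough to be thinned to 2000 UMIs, the pairs were found in 71 (19.9%, 15.9% to 24.5%), 26 (7.30%, 4.83% to 10.5%) and 3 droplets (0.843%, 0.174% to 2.44%). Of the 92 droplets with Myh2, 53.3% also had Myh1 and 13.0% had Myh4, against 52.3% with Myh1 and 67.5% with Myh4 among all droplets. At least 2 fast isoforms were detected in 205 droplets (41.1%) and, at equal depth, in 98 of 356 (27.5%, 23.0% to 32.5%), and all 3 in 4 droplets, or 1 at equal depth. Co-detection rises with depth by its nature. Thinned to 1000 UMIs the share with at least 2 was 17.4% of 437 droplets, and thinned to 4000 UMIs it was 40.7% of 241. The droplets deep enough to be counted also differ between these depths. In sham non-myogenic cells, which should hold none, at least 2 fast isoforms were seen in 4 of 88 cells (4.55%) and at equal depth in 2 of 79 (2.53%). A droplet can hold RNA of 1 fibre or of several, and these cannot be told apart for a pair of isoforms.

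**Figure D3:**
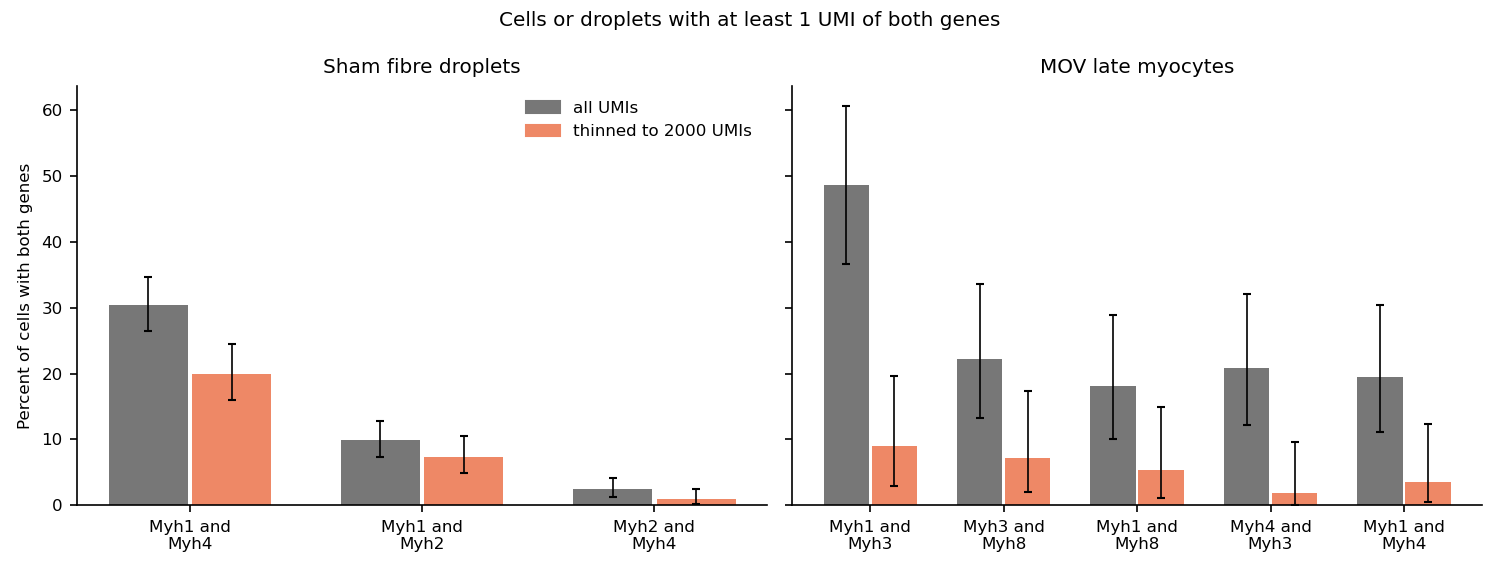
Percent of sham fibre droplets (left) and MOV late myocytes (right) with at least 1 UMI of both genes of a pair, with all UMIs (grey) and thinned to 2000 UMIs (orange), and exact 95% binomial intervals. In sham fibre droplets at equal depth Myh1 with Myh4 reached 19.9%, Myh1 with Myh2 7.30% and Myh2 with Myh4 0.843%, and in late myocytes Myh1 with Myh3 was at 48.6% with all UMIs and 8.93% thinned.

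The isoform that led a droplet went with a wide set of other transcripts. The droplets led by Myh2 (287544 UMIs in 17) were set against those led by Myh4 (1322680 UMIs in 147), with the heavy chains themselves left aside because they made the split. Over the 4215 genes with at least 20 UMIs, 14.4% were at least 2-fold higher and 13.7% at least 2-fold lower in the Myh2-led droplets, and the median log2 ratio was 0.09. The Myh2-led droplets were deeper, with a median of 15825 UMIs against 5885, and droplets of 1 library are not replicates, so these ratios are given with no test. Of the oxidative and slow fibre list, 8 of the 8 measured genes were at least 2-fold higher and none lower, with a median log2 ratio of 4.19. Mb (myoglobin, the oxygen store of oxidative fibres) was at 11922 CPM against 838 CPM and had 3.83 (3.73 to 3.93) as its log2 ratio, Fabp3, a fatty acid carrier, differed by 4.55 (4.41 to 4.69) and Ckmt2, the mitochondrial creatine kinase, by 3.22 (3.05 to 3.40). The glycolytic list went the other way, with 7 of 9 genes at least 2-fold lower, none higher and a median of -1.60. Aldoa, a glycolytic enzyme, had a log2 ratio of -1.32 (-1.38 to -1.26), and Eno3, the muscle enolase, one of -1.25 (-1.35 to -1.14). Pvalb (parvalbumin, the calcium buffer of the fastest fibres) had 25 UMIs against 9339 and a log2 ratio of -6.34 (-6.97 to -5.78). Pgam2 at -0.72 and Pfkm at -0.98 did not pass 2-fold. Aldoa was no marker of the groups, whereas Pvalb and Eno3 were among the 9 fibre markers. Both sets of droplets had to pass a cut on the sum of these markers, not on each of them.

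The partners of the motor differed as well. Their counts stand beside the 14.4% of all genes that were at least 2-fold higher and the 13.7% that were lower. Myl2 and Myl3, the slow regulatory and essential light chains, had 411 and 79 UMIs in the 17 droplets led by Myh2 and 0 UMIs in the 147 led by Myh4. The fast light chains were present in both, Myl1 with a log2 ratio of -1.53 and Mylpf with one of -0.95. Mybpc2, the fast myosin-binding protein C, had 2 UMIs against 1744 and a log2 ratio of -7.57 (-10.6 to -5.71), and it was among 6 of 10 measured chaperones and thick filament partners that were at least 2-fold lower, with none higher and a list median of -1.35. Ttn (titin, which sets the length of the thick filament) had -2.02 (-2.36 to -1.71), and the small heat shock protein Hspb1 had -0.48 (-0.66 to -0.31) and did not pass 2-fold. Of the 4 measured light chain kinase and phosphatase genes, Mylk4 (-5.03) and Mylk2 (-1.13), both kinases, passed 2-fold and none was higher.

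Regulators of fibre type were divided. Among 8 measured, Vgll2, a co-factor of TEAD proteins, was higher by 2.91 (2.36 to 3.47), and Ppargc1a (PGC-1α, a driver of mitochondrial genes) had 13 UMIs against 14, a log2 ratio of 2.09 (0.89 to 3.29). Tbx15, a factor of glycolytic fibres, had -1.62 (-2.71 to -0.69), and Sox6, which represses slow fibre genes, had 0 UMIs against 46. Mef2c had a log2 ratio of -0.04 and was at 539 CPM and 555 CPM. The antisense gene Myhas, next to Myh4, had 147 UMIs at 111 CPM (93.9 to 131) in the droplets led by Myh4, where 66 of 147 (44.9%) had a UMI, 13 UMIs at 24.3 CPM in the 47 led by Myh1 and 1 UMI in the 17 led by Myh2. Its log2 ratio of Myh2-led over Myh4-led droplets was -5.00 (-10.3 to -2.50). The Chromium 3′ assay keeps strand, so reads of Myhas and of the overlapping Myh1 can be told apart.

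The MOV fibre droplets were few and shallow, and their fast make-up differed from that of the sham droplets. Myh1 had 371 UMIs at 1499 CPM (1350 to 1659), Myh2 had 170 at 687 CPM (587 to 798) and Myh4 had 160 at 646 CPM (550 to 755). As shares of the 701 fast UMIs these were 52.9%, 24.3% and 22.8%, against 24.2%, 7.10% and 68.7% of the 16384 fast UMIs in sham. The order was therefore Myh1 first in MOV, with overlapping intervals for Myh2 and Myh4, and Myh4 first in sham. Only 11 MOV droplets had 20 or more fast UMIs, of which Myh1 led in 5, Myh2 in 4 and Myh4 in 1, with 1 tied between Myh1 and Myh4, and 8 of the 11 held a second isoform at 10% or more.

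The barcodes found in both libraries moved these shares. The 21 shared MOV fibre droplets had 65 fast UMIs, of which Myh4 made up 84.6%, Myh1 9.23% and Myh2 6.15%. Without them, the 36 other MOV droplets (median 2675.5 UMIs) had 636 fast UMIs. These were 57.4% Myh1, 26.1% Myh2 (22.7% to 29.7%) and 16.5% Myh4 (13.7% to 19.6%), and the intervals of Myh2 and Myh4 no longer overlapped. Such intervals take each UMI as independent. Over all 57 MOV droplets the 10 highest for each gene held 86.8% of Myh1, 94.1% of Myh2 and 88.1% of Myh4 UMIs. The order of Myh2 and Myh4 therefore rests on few droplets. In sham, leaving out the shared droplets moved the Myh4 share from 68.7% to 67.1%. Giving each droplet equal weight brought the Myh4 shares closer together, to 57.8% in sham and 33.3% in MOV. The lower Myh4 share in MOV thus held both with and without the shared barcodes, in 1 library per condition, and surgery, animal and library cannot be told apart.

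**Figure D4:**
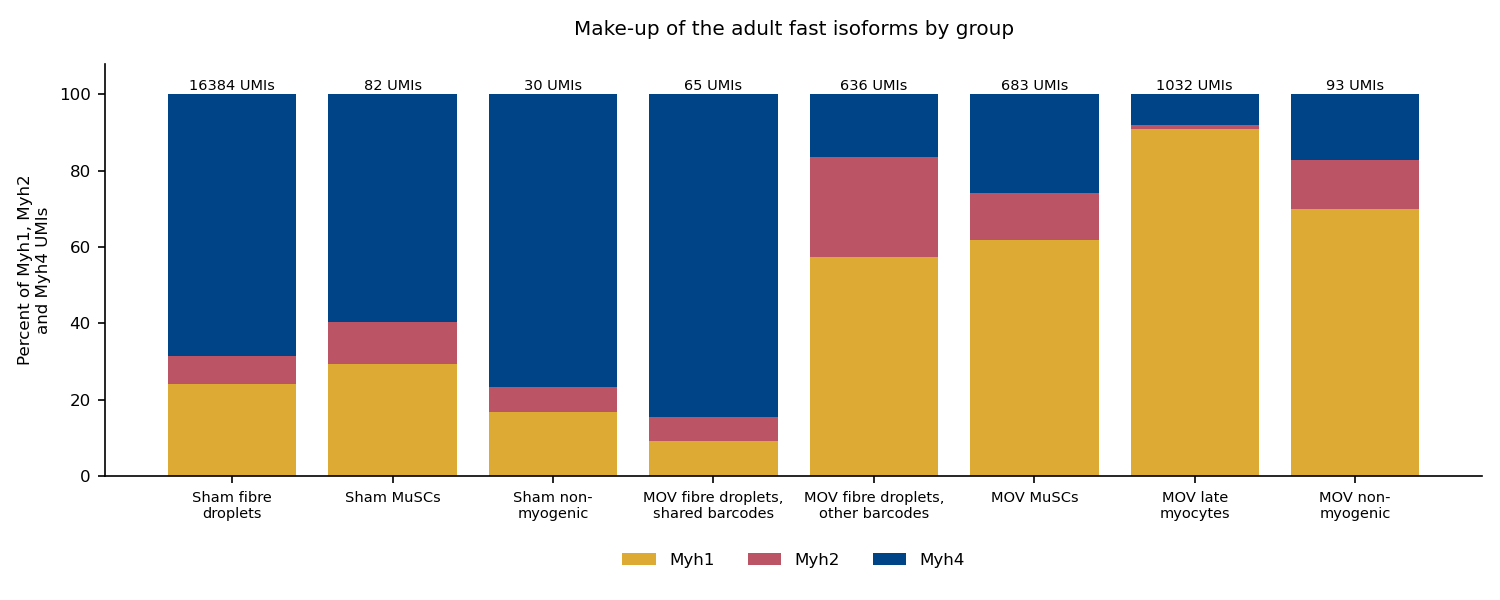
Make-up of the fast heavy chain UMIs (percent Myh1, Myh2 and Myh4 of their sum) by group and library, with the number of such UMIs above each bar and MOV fibre droplets split by whether their barcode is also in the sham library. Myh4 made up 68.7% in sham fibre droplets, 84.6% in the shared and 16.5% in the other MOV fibre droplets, and Myh1 made up 90.8% in MOV late myocytes.

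The developmental isoforms belonged to the MOV myocytes. Myh3, the embryonic isoform, had 3510 UMIs there, a level of 431 CPM (417 to 445), against 5.97 CPM (5.29 to 6.72) in MOV MuSCs and 1.96 CPM (1.44 to 2.60) in MOV non-myogenic cells. Myh8, the neonatal isoform, had 328 UMIs at 40.3 CPM (36.0 to 44.9) in myocytes, 0.347 CPM in MuSCs and 4 UMIs in non-myogenic cells. The MOV fibre droplets had Myh3 at 76.7 CPM (46.2 to 120) on 19 UMIs, of which 17 lay in 1 droplet, and Myh8 at 16.2 CPM on 4 UMIs. Of all UMIs in kept MOV cells, myocytes held 83.3% of the 4212 for Myh3 and 84.3% of the 389 for Myh8, although they were 181 of 2985 cells. Both isoforms were thus concentrated in this group, and the sham library as a whole had 1 Myh3 UMI and 1 Myh8 UMI.

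Within the myocytes the UMIs were unevenly spread. Myh3 had a UMI in 82 of 181 myocytes (45.3%), up to 660 UMIs in 1 cell, and the 10 highest cells held 70.4% of them. Myh8 had a UMI in 17 myocytes (9.39%), up to 92 in 1 cell, and the 10 highest cells held 96.6%. At 2000 UMIs per cell, Myh3 was detected in 28 of 163 myocytes (17.2%, 11.7% to 23.9%) and in 7 of 768 MOV non-myogenic cells (0.911%, 0.367% to 1.87%), which should lack it. MOV MuSCs with Myh3 were 8 of 1552 (0.515%, 0.223% to 1.01%), an interval that overlaps that of the non-myogenic cells, although their summed level was higher. Of their 275 UMIs 66.2% lay in 10 cells, with 95 UMIs in 1 cell. Unthinned, the shares were 5.79% of MuSCs (median depth 21676) and 5.17% of non-myogenic cells (median depth 25888.5).

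Myh1, an adult isoform, was the next sarcomeric heavy chain of the myocytes. It had 1086 UMIs at 133 CPM (126 to 141) in 78 of 181 cells (43.1%), and 15 of 163 at equal depth (9.20%), against 5 of 768 non-myogenic cells (0.651%). Myh4 had 93 UMIs at 11.4 CPM (9.21 to 14.0) and Myh2 had 25 at 3.07 CPM (1.99 to 4.53). At equal depth Myh2 was found in 1 myocyte of 163 (0.613%) and in 3 non-myogenic cells of 768 (0.391%), and at this depth the shares did not differ beyond the counting error. The summed Myh2 level was nevertheless higher in myocytes than the 0.489 CPM (0.253 to 0.855) of the non-myogenic cells. Myh7, the slow isoform, had 6 UMIs in 5 myocytes and 17 in the whole kept MOV library, too few for a level. Myh1 was 90.2% of the fast UMIs in myocytes, whereas it was 52.9% in the fibre droplets of the same library. In its non-myogenic cells Myh1 was 69.9% of the 93 fast UMIs, and 24 of these 65 Myh1 UMIs lay in 1 cell.

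Against the MuSCs of the same library, 4 of the 7 genes with at least 20 UMIs were at least 2-fold higher in myocytes and 1 was at least 2-fold lower. The background over the 13497 genes measured was 7.26% higher and 13.7% lower, with a median log2 ratio of -0.14. The log2 ratios were 6.86 (6.14 to 7.68) for Myh8, 6.17 (6.00 to 6.36) for Myh3, 3.86 (3.70 to 4.02) for Myh1 and 1.57 (1.19 to 1.94) for Myh4. Myh2 had 0.77 (0.06 to 1.43) and did not pass 2-fold. The fibre markers as a list were at 11082 CPM in MOV myocytes and 864 CPM in MOV MuSCs. Their part in the ratios of Myh1 and Myh4 was not tested. Of the non-muscle isoforms Myh10 was lower at -1.13 (-1.45 to -0.82), and Myh9 had -0.32 (-0.41 to -0.23) and did not pass 2-fold. The UMIs of all 4 higher genes lay in few cells, since the 10 highest myocytes held 79.8% of those of Myh1 and 84.9% of those of Myh4 beside the shares given above for Myh3 and Myh8, so the counting intervals are narrower than the spread between cells.

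The 72 late myocytes (with Myl4, Tnnt2, Actc1 and other late markers) carried most of the sarcomeric heavy chain. Myh3 was at 1036 CPM (999 to 1074) there and at 101 CPM (92.5 to 110) in the 109 early myocytes, and 251 of the 532 early UMIs lay in 1 cell. Myh1 was at 326 CPM (305 to 347) and 28.3 CPM (23.9 to 33.2), and Myh4 at 29.2 CPM (23.3 to 36.2) and 1.71 CPM (0.78 to 3.24). Myh8 had 327 UMIs in late myocytes, 114 CPM (102 to 127), and 1 UMI in early ones. Myh2 did not follow, at 3.83 CPM (11 UMIs) and 2.66 CPM (14 UMIs). Myh9 was lower in late myocytes, 104 CPM (92.2 to 116) against 162 CPM (152 to 173), and so was Myh10, 7.65 CPM (4.80 to 11.6) against 13.7 CPM (10.7 to 17.2), although these last intervals overlap.

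As log2 ratios of late over early myocytes, 4 of 7 measured genes passed 2-fold upward, Myh3 at 3.36 (3.23 to 3.50), Myh1 at 3.53 (3.28 to 3.79), Myh4 at 4.10 (3.10 to 5.27) and Myh8 at 9.23 (6.74 to 14.5), the last against 1 UMI. Over 10254 genes 6.16% were at least 2-fold higher and 9.89% lower. None of the 8 genes was 2-fold lower, and Myh9 had -0.65 (-0.84 to -0.45) and Myh10 -0.84 (-1.60 to -0.13).

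Ordered by the share of late markers and split into 4 bins of 46, 45, 45 and 45 cells, the myocytes differed in isoforms from bin to bin. Myh3 was at 35.8, 34.4, 339 and 1546 CPM from the first to the last bin, with a UMI in 7, 19, 28 and 28 cells. Myh1 was at 8.02, 19.9, 102 and 474 CPM. Both were thus higher in each of the last 2 bins than in the one before. Myh8 was at 0, 0.453, 13.3 and 175 CPM with a UMI in 0, 1, 3 and 13 cells, so most of its UMIs lay in the last bin. Myh4 was at 0.943, 1.36, 14.7 and 33.3 CPM, and all 6 Myh7 UMIs lay in the last bin. Myh9 was at 144, 170, 141 and 102 CPM, and Myh10 at 10.8, 15.9, 11.9 and 6.43 CPM. Both were highest in the second bin and lowest in the last. The interval of the last Myh9 bin (87.7 to 119) lay below the other Myh9 intervals, which overlap one another. Those of Myh10 overlap in all bins. Counts in a bin rest on few cells, and the split is by other genes measured in the same cells.

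**Figure D5:**
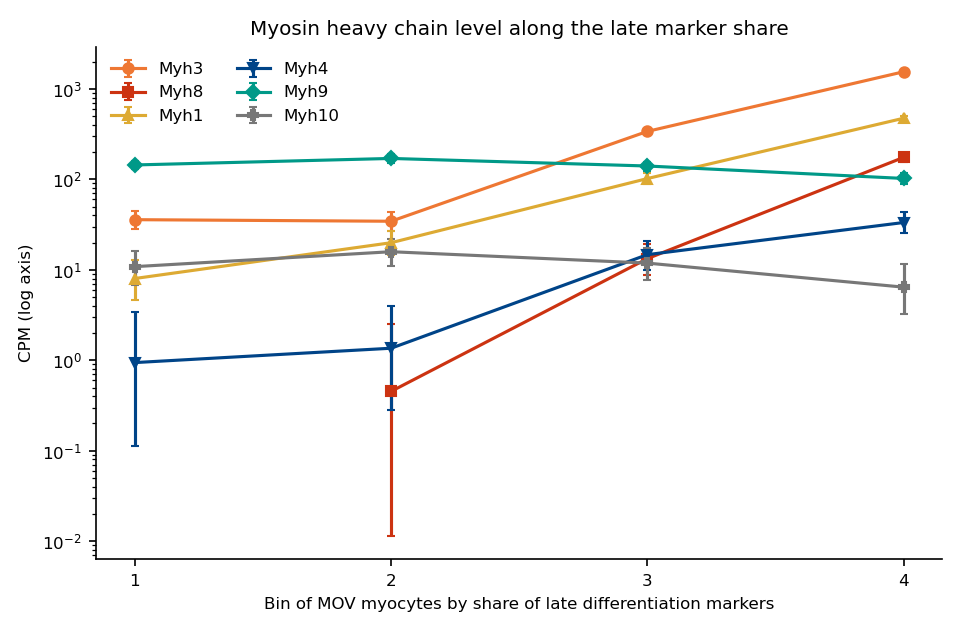
Level of 6 heavy chain genes (CPM on a log axis, 95% Poisson intervals, no point at 0 UMIs) in 4 bins of the 181 MOV myocytes, ordered from the lowest to the highest share of late myocyte markers. Myh3 went from 35.8 to 1546 CPM and Myh8 from 0 to 175 CPM, while Myh9 was lowest in the last bin at 102 CPM.

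Single late myocytes held several sarcomeric heavy chains at once. Of the 37 late myocytes with Myh1, 94.6% also had Myh3, which is 35 of all 72 (48.6%, 36.7% to 60.7%), and at equal depth 5 of 56 had both (8.93%). All 16 late myocytes with Myh8 also had Myh3 (22.2% of 72), and at equal depth 4 of 56 had both (7.14%). Over all 181 myocytes Myh3 and Myh8 were found together in 16 (8.84%), and at equal depth in 4 of 163 (2.45%). Myh8 was thus never seen in a late myocyte without Myh3, whereas 46 late myocytes had Myh3. Myh1 with Myh8 was found in 13 late myocytes, Myh4 with Myh3 in 15 and Myh1 with Myh4 in 14, and at equal depth in 3, 1 and 2 of 56. Of the 109 early myocytes 16 (14.7%) had both Myh1 and Myh3.

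Between myocytes and MuSCs of the MOV library, the adult light chains and part of the assembly machinery of the thick filament were higher in myocytes. The list counts stand beside the 7.26% of all genes that were at least 2-fold higher and the 13.7% that were lower. Of the adult light chain list, 3 of 3 measured genes passed 2-fold upward, with a median log2 ratio of 3.76 against -0.14 over all genes. They were Myl1 (968 CPM against 71.6 CPM, 3.76), Mylpf (4.33, a fibre marker) and Myl2 (2.11). In the embryonic, non-muscle and smooth muscle list 3 of 6 passed upward with a median of 0.69. Of the non-muscle and smooth muscle light chains Myl6 was at -0.03, Myl12a at 0.05 and Myl12b at -0.31, while Myl9 (1.33) and Myl6b (3.43) passed, and Myl4, the embryonic light chain and one of the late markers that made the group, was at 5.21. Of 12 chaperones and thick filament partners 7 passed upward and none downward, with a median of 2.94. Among them Ttn was at 2.88 (2.84 to 2.92), while Hspb1 at 0.31 and the general chaperone Hsp90aa1 at -0.13 did not pass. Unc45b (6.00) and Smyd1 (3.33), which fold and assemble myosin in muscle, and Mybph (6.21), a myosin-binding protein, were higher. The 6 kinase and phosphatase genes had 2 higher and none lower, with a median of 0.65, where Ppp1cb was at -0.02, Ppp1r12a at -0.32 and Ppp1r12b at 0.71.

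Metabolic lists and regulators were less uniform, beside the 7.26% of all genes that were at least 2-fold higher and the 13.7% that were lower. The glycolytic list had 6 of 9 genes higher and none lower (median 1.48), with Eno3 at 1.82, Aldoa at 0.73 and Ldha at 0.23. The oxidative and slow list had 6 of 12 higher and 1 lower (median 0.80). Troponin C of slow and cardiac muscle, Tnnc1, was at 665 CPM against 7.58 CPM (6.46). Mdh2 (0.37), Idh2 (-0.21) and Atp2a2 (0.15) did not pass, the lower one was the fatty acid transporter Cd36 with 1 UMI against 23, and Tnni1 and Tnnt1 on this list were late markers. Of 13 regulators 5 were higher and 1 lower (median 0.32). Mef2a (1.87) and Mef2c (4.03), factors that bind MEF2 motifs, passed upward. Vgll2 (0.15) did not, and Nfatc1, which responds to calcium and calcineurin, was lower at -1.35 (-1.68 to -1.03).

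Of the non-muscle heavy chains, Myh9 was higher in MOV than in sham MuSCs, and the Myh10 call depended on the mitochondrial limit. Myh9 was at 107 CPM (91.1 to 125) in sham and 177 CPM (173 to 181) in MOV, and the log2 ratio was 0.73 (0.51 to 0.96). Myh10 was at 17.7 CPM (11.7 to 25.8) and 25.2 CPM (23.8 to 26.7), a log2 ratio of 0.51 (-0.04 to 1.12) that includes 0. With a mitochondrial limit of 20% it was 0.58 (0.03 to 1.19) and with none 0.56 (0.01 to 1.17), both of which exclude 0. At equal depth Myh9 was found in 14.4% of 118 sham MuSCs (8.62% to 22.1%) and 25.2% of 1552 MOV MuSCs (23.0% to 27.4%), and unthinned in 40.2% and 85.4%. Neither gene passed 2-fold in the comparison of UMIs summed over all MuSCs. Over the 13201 genes measured in it, 11.7% were at least 2-fold higher (1545) and 9.18% lower (1212) in MOV, with a median log2 ratio of 0.08. Scaled to the median ratio of genes seen in both, the split turned to 1203 higher and 1476 lower.

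The Myh9 value depended on the shared barcodes. The 10 sham MuSCs with a shared barcode had Myh9 at 169 CPM (136 to 208), and the other 112 had it at 74.6 CPM (58.7 to 93.5). Without the shared barcodes of both libraries the log2 ratio was 1.25 (0.92 to 1.60), past 2-fold, and that of Myh10 was 0.67 (-0.04 to 1.48). With each of all MuSCs weighted equally the log2 ratio was 1.17 for Myh9 and 1.18 for Myh10, both past 2-fold. In cells with quiescence markers only (93 sham, 234 MOV) Myh9 had a log2 ratio of 0.79 (0.39 to 1.21), and Myh10 had 5 UMIs in sham against 57 in MOV and one of 1.37 (0.06 to 3.04). Each of these ratios was above 0, though the interval of Myh10 without the shared barcodes included it.

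The sarcomeric genes among MuSC UMIs went the other way for the fast isoforms. Myh4 was at 32.1 CPM in sham and 3.84 CPM in MOV MuSCs, with a log2 ratio of -3.06 (-3.53 to -2.58), Myh2 had -1.71 (-2.70 to -0.53) and Myh1 -0.78 (-1.37 to -0.12). The non-myogenic cells showed the same direction for Myh4, 25.1 CPM in sham and 0.653 CPM in MOV. Within the MOV library the fast isoforms were above the non-myogenic level in MuSCs. Myh1 was at 9.18 CPM (8.33 to 10.1) against 2.65 CPM (2.05 to 3.38), a log2 ratio of 1.79 (1.41 to 2.19). Of the 65 non-myogenic Myh1 UMIs, 24 lay in 1 cell. Myh4 was at 3.84 CPM (3.30 to 4.45) against 0.653 CPM (0.373 to 1.06), a log2 ratio of 2.56 (1.82 to 3.40). Without the shared barcodes the log2 ratios of MOV over sham MuSCs were -3.50 for Myh4 (-3.98 to -2.99), -2.15 for Myh2 and -1.17 for Myh1. The fibre markers summed were at 1633 CPM in sham MuSCs and 864 CPM in MOV MuSCs, though not each of them was lower, since Mylpf had a log2 ratio of -0.04 (-0.21 to 0.14). Their part in the result was not tested. Myh3 had 0 UMIs in sham MuSCs, which allows up to 1.97 CPM at 3 counts, and 5.97 CPM in MOV MuSCs. At equal depth any sarcomeric isoform was found in 4.12% of MOV MuSCs (64 of 1552, 3.19% to 5.24%). In MOV non-myogenic cells the share was 2.21% (17 of 768, 1.29% to 3.52%), and these intervals overlap. The sham shares were 11.9% of MuSCs (14 of 118, 6.64% to 19.1%) and 6.33% of non-myogenic cells (5 of 79, 2.09% to 14.2%), which overlap too.

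The partner lists in MuSCs went in several directions, and their counts stand beside the 11.7% of all genes that were at least 2-fold higher and the 9.18% that were lower. Of the adult light chains 2 of 3 measured were at least 2-fold lower in MOV MuSCs, Myl1 (-1.39) and Myl2 (-1.95), while Mylpf was at -0.04. The glycolytic list had 3 of 8 lower and none higher, Pvalb (-3.03), Pgam2 (-2.03) and Pygm (-1.50), the last of these the muscle glycogen phosphorylase. The oxidative and slow list had 4 of 12 higher and 2 lower, with Csrp3 (a stretch-responsive Z-disc protein, 5 UMIs in sham against 1915) at 3.67 (2.44 to 5.29), Tnni1 at 4.24 against 1 UMI in sham, Mb, myoglobin, at -2.50 and Ckmt2, the mitochondrial creatine kinase, at -2.03. The embryonic and non-muscle light chains had 2 of 6 higher, Myl9 at 2.56 (1.76 to 3.52) and Myl4 at 1.88 (1.13 to 2.75), and the chaperones 3 of 11 higher and 3 lower. The kinase list had 3 of 6 lower and the regulators 1 of 13 in each direction.

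Non-muscle heavy chains varied between MuSC states of the MOV library. Myh10 was at 32.6 CPM (30.5 to 34.9) in the 593 MuSCs with cycling markers and at 15.6 CPM in the other MOV MuSCs, a log2 ratio of 1.06 (0.87 to 1.25). The other states had 18.1 CPM (13.7 to 23.5) with quiescence markers, 14.6 CPM (11.2 to 18.8) with matrix markers and 15.3 CPM (13.3 to 17.6) with none of these, and these 3 intervals overlap. Cycling cells were thus the only MOV MuSC state set apart by Myh10, a motor of cytokinesis. In sham MuSCs the same gene had 13 UMIs at 38.0 CPM (20.2 to 64.9) in the 7 cycling cells and 5 UMIs at 7.04 CPM (2.29 to 16.4) in the 93 with quiescence markers. Myh9 was highest in MOV MuSCs with matrix markers at 217 CPM (203 to 232), then 180 CPM (175 to 185) in cycling cells, 169 CPM (162 to 176) in the rest and 139 CPM (126 to 152) in cells with quiescence markers. Its spread over states was narrower than that of Myh10, with log2 ratios over the other MuSCs from -0.37 to 0.33. State cuts matter here, since 13.6% of MOV cells lay near the cycling cut, 29.7% near the matrix cut and 35.1% near the quiescence cut.

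The balance of the pair differed between cell groups. The log2 ratio of Myh10 over Myh9 UMIs was -2.81 (-2.90 to -2.72) in MOV MuSCs, -3.62 (-3.94 to -3.31) in MOV myocytes and -1.89 (-1.98 to -1.81) in MOV non-myogenic cells. These 3 intervals do not overlap. The non-myogenic value was mostly that of FAPs, which held 1380 of the 1414 Myh10 UMIs and had -1.81 (-1.90 to -1.72), whereas endothelial cells had -4.69 (-6.16 to -3.54), mural cells -3.44 (-4.20 to -2.76) and immune cells -3.43 (-5.11 to -2.12). MOV FAPs thus had more Myh10 beside Myh9 than MOV MuSCs, myocytes and these other cells, and the fibre droplets had too few UMIs of either gene for an order (6 of Myh10 and 8 of Myh9 in MOV). In sham it was -2.59 in MuSCs and -2.02 in non-myogenic cells, with intervals that overlap. Within MOV MuSCs it was -2.46 in cycling cells and -3.89 in cells with matrix markers.

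Across the 15 groups with at least 20 cells, Myh9 was highest in MOV endothelial cells at 418 CPM (355 to 489) and mural cells at 340 CPM (295 to 390), which do not differ beyond their intervals. It was at 211 CPM (205 to 217) in MOV FAPs, close to the MuSCs with matrix markers, and at 67.0 CPM (47.8 to 91.2) in sham FAPs. Fibre droplets were last, with 32.3 CPM in MOV and 0.644 CPM in sham. Myh10 was highest in MOV FAPs at 60.4 CPM (57.2 to 63.7), followed by sham FAPs at 33.5 CPM (20.4 to 51.7), MOV cycling MuSCs at 32.6 CPM and MOV mural cells at 31.4 CPM, and the last 3 do not differ beyond their intervals. FAPs, the stromal cells of muscle, thus led in Myh10, and vessel cells led in Myh9.

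How often Myh9 and Myh10 were seen in 1 cell depended on depth. In MOV MuSCs 566 of 1588 cells (35.6%) had both, which is 94.0% of the cells with Myh10, while 85.4% of all MOV MuSCs had Myh9. At equal depth 23 of 1552 (1.48%) had both, which is 29.9% of the 77 with Myh10, while 25.2% of all had Myh9. In MOV myocytes 44 of 181 (24.3%) had both, and in sham MuSCs 11 of 122 (9.02%). At equal depth MOV non-myogenic cells had both in 31 of 768 (4.04%). At 2000 UMIs either gene is often missed, so absence of a UMI in a cell is not absence of the transcript.

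The genes whose levels were most like each isoform were found over the same 15 group sums by Pearson's r of log2(CPM + 1) among 12339 genes. The sums share libraries, cells of like depth and the marker rule, so these values are a description. Myh1 was nearest to Acta1 (r = 0.977), then Smpx, Myl1, Mylpf and Tnnc2, all genes of the sarcomere or its attachments. Myh4 was nearest to Cox8b (0.985), then Pvalb, Ckm, Tcap and Ankrd23, and Myh2 to Asb12 (0.973), then Tmem52, Hspb6, Ampd1 and Mb. Myh3 was nearest to Mymx (0.942), the fusion peptide of myocytes, then Tnnc1, Tnni1, Myl4 and Mymk, and Myh8 to Tnnc1 (0.854), then Mybph, Cck, Tnni1 and Myl4. Myh9 was nearest to Msn (moesin, a linker of the actin cortex), then Atrx, Actg1, Tpm4 and Dusp11, and Myh10 to Pcolce (0.888), then Serp2, Col3a1, Col1a1 and Gm1673, of which 3 are collagens or process them. Among the members, r was 0.864 for Myh1 with Myh4 and 0.892 for Myh2 with Myh4. Too few UMIs of Myh7 were found for such a comparison.

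The other myosin heavy chain genes in the matrices were sparse, apart from Myh11. Myh11, the smooth muscle heavy chain, had 74 UMIs in the kept sham cells and 688 in the kept MOV cells, 335 of the latter in the 29 mural cells (554 CPM). Myh14 had 23 and 58 UMIs, Myh13 had 2 and 17, Myh6 and Myh7b each had 0 and 3, and Myh15 had none in either library.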

How the data were processed

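Single-cell suspensions of plantaris muscle were made into 10x Chromium 3′ libraries, 1 for sham and 1 for MOV. The deposited files hold UMI counts per gene and barcode, which the authors made with Cell Ranger 6.0.0 on mm10, and the submitters' processing notes also name R 4.0.2 and Seurat 4.0.2. No normalized values were used.

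Barcodes with under 10% mitochondrial UMIs were kept, and the highest doublet scores (scrublet in scanpy 1.11.5, 0.8% per 1000 cells) were removed, 4 in sham and 75 in MOV. Total counts were 7302661 in sham and 88498487 in MOV. A cell joined a group when marker genes made up a set share of its UMIs (2% for fibre markers, 0.1% for MuSC and for commitment and fusion markers, 0.5% for late markers) and numbered at least 3. The shares were chosen after their distributions were seen, and the members and lists were chosen with earlier results of these data known.

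UMIs were summed per group and divided by the group's UMIs. Levels have exact Poisson intervals, shares exact Clopper-Pearson intervals and ratios exact conditional intervals, all at 95% (scipy 1.17.1). Ratios needed 20 UMIs over both groups and were called past 2-fold, with a side at 0 UMIs set to 3 counts and called only in its own direction. For co-detection each cell was thinned to 2000 UMIs with a fixed seed, and shallower cells were left out. The steps were tested on simulated data. The genes named are the 8 members, the other myosin heavy chain genes, the 3 genes with most UMIs of each list, genes that go against their list, and the 5 genes most like each member. Further list genes were named after their values were seen. The result of 1 gene that this rule names is not reported here. Alternatives were another mitochondrial limit, other thinning depths, count minimums and group cuts, equal weight per cell, another scaling, and leaving out barcodes found in both libraries. The last of these and the comparison of cells with quiescence markers were added after seeing the data. Python 3.11.15, numpy 2.4.6, pandas 2.3.3, Biopython 1.88 and matplotlib 3.10.9 were used.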

Additional observations from a re-analysis of the deposited data

Results flagged for a closer look

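The barcodes set aside for a mitochondrial share of 10% or more also held heavy chain UMIs in the MOV library, and 4 genes were there above their level in the sham barcodes set aside by the same limit. Over the 794 MOV barcodes Myh3 was at 157 CPM (144 to 171) and Myh8 at 6.32 CPM (3.91 to 9.66), and neither had a UMI in the 362 sham barcodes. Myh9 was at 145 CPM (133 to 159) against 21.5 CPM in sham, and Myh10 at 23.5 CPM (18.6 to 29.3) against 3.35 CPM. Of the 521 Myh3 UMIs in these MOV barcodes, 444 lay in 41 barcodes that passed the myocyte marker cut, at 1189 CPM (1081 to 1305), above the 431 CPM of the kept myocytes.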

How the results depend on the processing

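Of 99 alternative values over 17 results, 76 lay inside the interval of the reported value and 23 did not. For the 4 counts of genes, which have no interval, inside means within the fold allowed for counts. No log2 ratio changed sign, but the split of higher and lower genes between MuSCs of the libraries turned under some alternatives. Myh3 in MOV myocytes (431 CPM) was 454 CPM with a 20% mitochondrial limit, 479 CPM with none, 340 CPM with the marker cuts halved, 585 CPM with them doubled, 274 CPM as a mean over cells and 452 CPM when scaled without mitochondrial genes and fibre markers. The Myh4 share of fast UMIs in fibre droplets was 67.1% in sham and 16.5% in MOV without barcodes found in both libraries, and 57.8% and 33.3% as means over droplets. The log2 ratio of Myh9 in MuSCs was 1.25 without those barcodes and 1.17 as a mean over cells, and that of Myh10 was 1.18 as a mean over cells and 1.37 in cells with quiescence markers. The share of sham fibre droplets with at least 2 fast isoforms was 17.4% at 1000 UMIs, 40.7% at 4000 UMIs and 41.1% unthinned. Unthinned, 8.84% of MOV myocytes had both Myh3 and Myh8, and 1.57% of MOV non-myogenic cells had a Myh4 UMI. With 5 or more UMIs required, 1579 genes were at least 2-fold higher in myocytes than MuSCs, and with 100 or more 581 were. Between MuSCs of the libraries the reported split was 1545 higher and 1212 lower in MOV. It was 1545 and 1820 at 5 UMIs, 1374 and 744 at 100 UMIs, and 1203 and 1476 scaled to the median ratio. A UMI minimum changes which genes are tested, and thinning which cells; for the other values the cause was not tested. No paired analysis was possible because each group has replicate 1 only, and for the same reason no replicate could be left out. Depth limits the small groups: a gene with 0 UMIs may be at up to 12.1 CPM in MOV fibre droplets, 3.28 CPM in sham non-myogenic cells and 1.97 CPM in sham MuSCs.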

Other observations

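Myh11, the heavy chain of smooth muscle, was mostly in barcodes that the mitochondrial limit set aside in the sham library. The 362 sham barcodes set aside held 2111 Myh11 UMIs, a level of 1416 CPM (1357 to 1478), whereas the 734 kept sham cells held 74. Of these 2111 UMIs, 1601 lay in 37 barcodes with markers of non-myogenic cells, at 5243 CPM (4989 to 5506). In the MOV library the 794 barcodes set aside held 464 Myh11 UMIs at 140 CPM (127 to 153), and the 2985 kept cells held 688. A count of smooth muscle heavy chain in these libraries therefore moves with the mitochondrial limit far more in sham than in MOV.

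The antisense gene Myhas had 230 UMIs in the kept sham cells and 13 in the kept MOV cells, against 11451 and 466 UMIs of its neighbour Myh4.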
